A study of Arabidopsis thaliana with 12 samples.

Results

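XERICO (AT2G04240) and AT5G23540 are the 2 genes of the ubiquitin and proteasome system described here, out of 691 genes named by 692 single-gene probes and of 3439 probes in all. XERICO is a protein with a RING-H2 domain that is linked to the hormone abscisic acid, and AT5G23540 is a regulatory subunit of the proteasome. They were chosen by name, with their difference between aap3 and wild-type (WT) roots already known. That difference is therefore a description here. Whether limma called it, in the main fit or under other processing, rests on the values the genes were chosen on and supports nothing. The samples are total RNA from Arabidopsis thaliana roots of ecotype Wassilevskija, 6 from WT and 6 from aap3, a mutant without the amino acid carrier AAP3. Both groups carry replicate numbers 1 to 6. The labels give no age, growth condition, allele or treatment, and do not say whether replicates came from separate plants. A p-value here measures the spread between samples only, and that spread may be technical.

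In the ubiquitin system, an activating enzyme, a conjugating enzyme and a ligase attach the small protein ubiquitin to a target in turn. RING-type ligases bind the conjugating enzyme through a zinc-binding RING domain, of which RING-H2 is one form. The proteasome then degrades marked proteins: its regulatory particle recognises, unfolds and feeds them into a proteolytic core. In Arabidopsis, raised XERICO expression is known to raise abscisic acid levels and drought tolerance. Abscisic acid is a hormone of water stress that also acts on root growth.

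Each gene is read by 1 probe, numbered 664 for XERICO on chromosome 2 and 1110 for AT5G23540 on chromosome 5. Neither gene is named by any of the 870 probes with several genes. Both genes have 2 transcripts in RefSeq, and which of them a probe reads, or which exon it lies in, is not given in the sources used here. Both probes lay above the floor set on low values, 0.20 times the sample median, in all 12 samples. AT5G23540 lay closer to it, at 0.511 to 1.26 sample medians, than XERICO, at 5.77 to 10.4. The floor is a percentile of the values and not a detection limit. Deposited intensities are linear, on a scale the sources do not state, so levels are compared within a probe and not between the 2 genes. None of the 10 root markers and 11 green tissue markers drawn up for a check had a single-gene probe, so the tissue label was not checked. AAP3 was not analysed here, so the mutant labels were not checked either. In whole roots, fewer cells of a type and less RNA per cell cannot be told apart.

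XERICO was lower in aap3 in every one of the 6 replicate pairs. Its deposited intensity in WT replicates 1 to 6 was 4.47, 4.37, 3.81, 3.59, 5.08 and 4.08. In aap3 replicates 1 to 6 it was 3.41, 3.30, 2.87, 2.97, 3.75 and 3.05. The groups overlapped, since aap3 replicate 5, the highest of its group, lay above WT replicate 4, the lowest of its own. Replicate 5 was the highest sample in both groups. The means were 4.23 ± 0.53 in WT and 3.22 ± 0.33 in aap3 (SD, n = 6).

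Within pairs, the XERICO intensity in aap3 stood at 73.7% to 82.7% of that in WT, with a median of 75.5%. The ratio was 76.2% in replicate 1, 75.5% in replicate 2, 75.4% in replicate 3, 73.7% in replicate 5 and 74.7% in replicate 6. Replicate 4 alone was above these, at 82.7%. On the log2 scale after quantile normalization the mean difference was -0.37, with a standard error of 0.09 when the samples are taken as independent and 0.03 when the replicate number is a block. This is a level 1.29-fold lower in aap3.

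AT5G23540 was likewise lower in aap3 in all 6 pairs. Its deposited intensity in WT replicates 1 to 6 was 0.432, 0.40, 0.377, 0.340, 0.601 and 0.630. In aap3 replicates 1 to 6 it was 0.276, 0.314, 0.254, 0.279, 0.398 and 0.362. Replicates 5 and 6 were the highest in both groups. Deposited intensity in aap3 replicate 5 lay above 2 WT samples, replicates 3 and 4, and in aap3 replicate 6 above WT replicate 4. After quantile normalization the overlap was wider: aap3 replicate 5 (-0.239 on the log2 scale) lay above WT replicates 1 (-0.240), 2, 3 and 4. On that scale aap3 replicate 6 lay above WT replicates 3 and 4, and aap3 replicate 2 above WT replicate 4. The groups thus overlapped for this gene too. The means were 0.463 ± 0.122 in WT and 0.314 ± 0.056 in aap3 (SD, n = 6), so the coefficient of variation was 26.3% and 17.8%, against 12.6% and 10.1% for XERICO.

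Within pairs, the AT5G23540 intensity in aap3 ranged from 57.6% of WT in replicate 6 to 81.9% in replicate 4, with a median of 66.8%. The ratio was 63.9% in replicate 1, 78.5% in replicate 2, 67.5% in replicate 3 and 66.2% in replicate 5. The pairs therefore differed more in the size of the gap than those of XERICO did. On the log2 scale the pair differences had an SD of 0.19 for AT5G23540 and 0.08 for XERICO. The mean log2 difference of AT5G23540 was -0.47, a level 1.39-fold lower in aap3. Its standard error was 0.20 without and 0.07 with the replicate block.

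**Figure D1:**
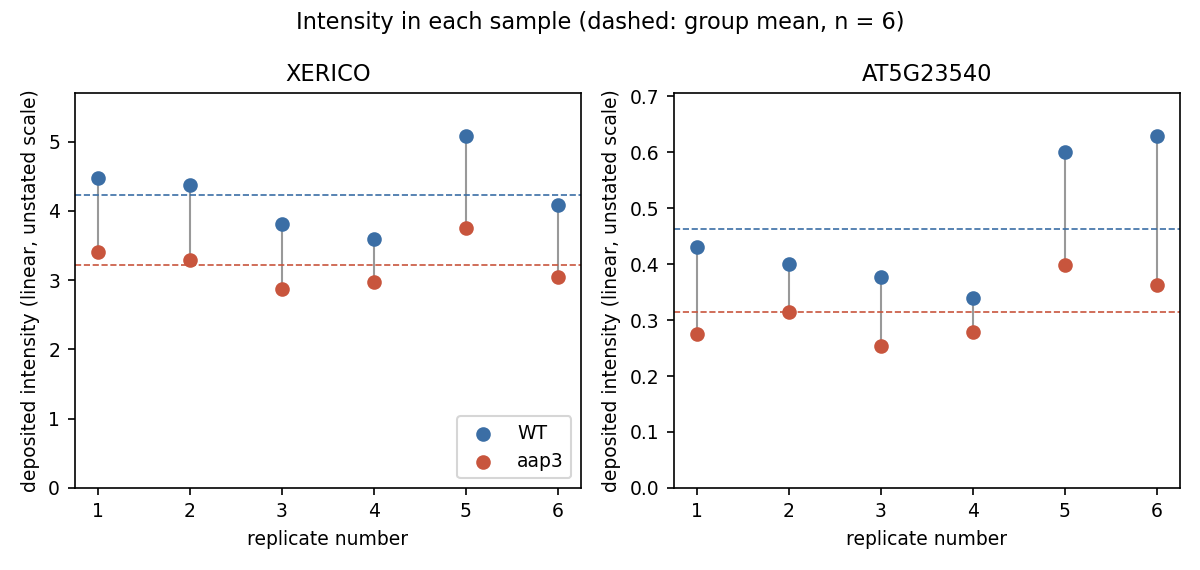
Deposited intensity (linear, unstated scale) of XERICO and AT5G23540 against replicate number, with WT in blue, aap3 in red, a grey line joining each pair and dashed lines at the group means (n = 6). The aap3 point is the lower one in all 6 pairs of both genes, and replicates 5 and 6 of AT5G23540 stand above the other 4 in both groups.

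A lower level in all 6 pairs was found for 408 of 3439 probes (11.9%), and both genes are among them. All aap3 samples lay below all WT samples for 69 probes (2.01%), and neither gene is among those. In limma, a linear model fitted over all probes, 172 of 3439 probes were called at a Benjamini-Hochberg adjusted p of 0.05 (5%), 86 of them lower in aap3 (2.5%). XERICO was one of the called and AT5G23540 was not. The calls varied with the processing: over the 25 alternatives described at the end, XERICO was called in 6 and AT5G23540 in 3. Adding the replicate number as a block gave 587 called probes (17.1%), 293 lower in aap3 (8.52%), and both genes were among them. These calls and pair directions rest on the values the genes were chosen on, so nothing is read from them.

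**Figure D2:**
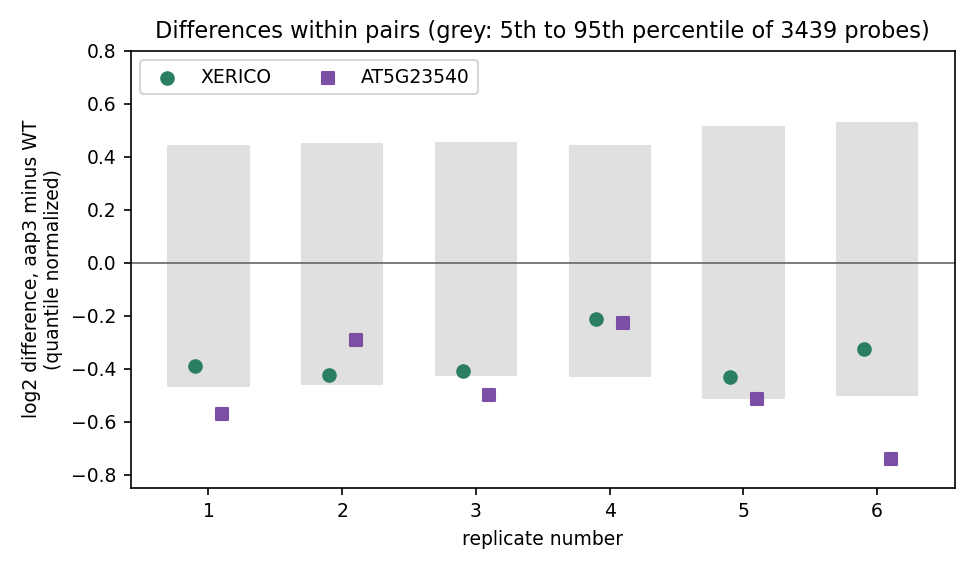
Log2 difference between aap3 and WT within each replicate pair after quantile normalization, for XERICO (circles) and AT5G23540 (squares), with grey bars from the 5th to the 95th percentile of 3439 probes. XERICO stays within the grey range in all 6 pairs, between -0.43 and -0.21, while AT5G23540 spans -0.74 to -0.23.

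How far the replicates account for each gene's spread was measured by dividing the sum of squares of the 12 log2 values into genotype, replicate number and the rest. For XERICO, genotype held 59.2%, replicate number 38.2% and the rest 2.57%. For AT5G23540 the order was turned, with 35.1% for genotype, 60.3% for replicate number and 4.60% for the rest. Over the 2859 probes above the floor in all samples, the median shares were 9.41%, 68.4% and 14.4%. The genes were chosen with their difference known, so nothing is read from genotype shares above that median. With values scaled only by the sample median, the shares of XERICO were 44.0% for genotype and 54.1% for replicate number, so its order also turned. With deposited values the shares of AT5G23540 came to 47.1% and 48.0%.

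Most of the replicate part of AT5G23540 lay between couples of neighbouring numbers, replicates 1 and 2, 3 and 4, and 5 and 6. Differences between couples held 60.0% of its whole spread and differences within couples 0.274%. Over the 2859 probes above the floor in all samples, the median shares were 41.9% and 13.9%. A smaller share than that of AT5G23540 was found in 71.0% of those probes between couples and in 0.735% within couples. Over the 2 groups, its mean log2 level in replicates 5 and 6 was 0.02 and -0.04, against -0.53 and -0.49 in replicates 1 and 2 and -0.76 in both replicates 3 and 4. For XERICO the couples held 24.3% and differences within them 13.9%, since replicate 5, at a mean log2 level of 3.15, stood apart from replicate 6, at 2.84. Replicates 3 and 4 were the lowest for XERICO, at 2.73 and 2.70. The couples come from earlier results of these data, and the labels do not say what neighbouring numbers share.

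**Figure D3:**
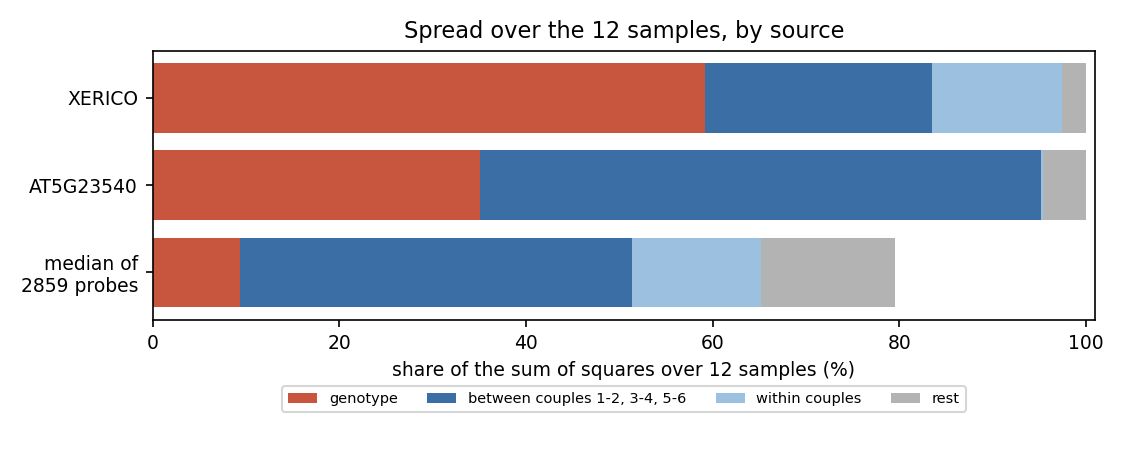
Share of the sum of squares over the 12 samples (%) held by genotype, by differences between the couples of replicates, by differences within couples and by the rest, for XERICO, AT5G23540 and the median of 2859 probes. Genotype holds 59.2% for XERICO and 35.1% for AT5G23540; the medians are taken share by share, so the lowest bar is shorter than the others.

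The size of the replicate differences was set beside that of the genotypes, with no test, since the genes were chosen with their difference already known. For the same reason nothing is read from the small share of the rest. The mean of the 2 groups ranged over 0.44 on the log2 scale between replicates for XERICO and over 0.78 for AT5G23540, or 1.36-fold and 1.72-fold. For both genes this range is wider than the mean difference between genotypes. A range between the extreme replicates and a difference of group means are unlike measures, so this does not rank replicate number above genotype. Taking out the replicate means reduced the SD of a value within its group from 0.17 to 0.06 for XERICO and from 0.35 to 0.13 for AT5G23540, on the log2 scale.

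By couples, the log2 difference of XERICO was -0.41 in replicates 1 and 2, -0.31 in replicates 3 and 4 and -0.38 in replicates 5 and 6. For AT5G23540 it was -0.43, -0.36 and -0.63. Replicates 5 and 6 thus gave the largest gap for AT5G23540 and not for XERICO. Differences between aap3 and WT correlated across all probes at 0.54 to 0.65 within a couple and at 0.32 to 0.35 between couples. The couples come from earlier results of these data, so nothing is read from the higher values within them. With each couple averaged to 1 value per group, the mean differences keep their values by construction. Their standard errors were then 0.11 for XERICO and 0.29 for AT5G23540 with the groups unpaired, and 0.03 and 0.07 with the couple as a block. Without WT replicate 6 the difference of AT5G23540 was -0.37, the smallest on leaving out any 1 sample, and without WT replicate 4 it was -0.57, the largest. For XERICO these omissions gave -0.31 (without WT replicate 5) to -0.42 (without WT replicate 4).

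Probes close in number were set beside each gene, since the sources do not say how numbers follow position on the array. Of the 20 probes nearest to XERICO by number, 13 were lower in aap3, with a median log2 difference of -0.05 and a range of -0.35 to 0.14. The lowest of them was probe 665, which directly follows XERICO and carries several gene names, at -0.35 ± 0.09 (SE). Of the 20 probes nearest to AT5G23540, 13 were also lower, with a median of -0.04 and a range of -0.38 to 0.23. The lowest was AT1G73740, at probe 1107, with -0.38 ± 0.13. None of these 40 differences lay below that of the gene it was set beside. The genes were chosen with their low difference known, so nothing is read from this. In limma none of the 40 was called, against 5% of all 3439 probes, and the lowest adjusted p was 0.0516 for probe 665. With so few probes, nothing is read from that count either. After subtraction of the median deviation of these nearby probes in each sample, the difference was -0.31 ± 0.11 for XERICO and -0.41 ± 0.10 for AT5G23540 (SE). With the replicate block these standard errors were 0.05 and 0.06. Whether array position has a part in either difference was not tested further.

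**Figure D4:**
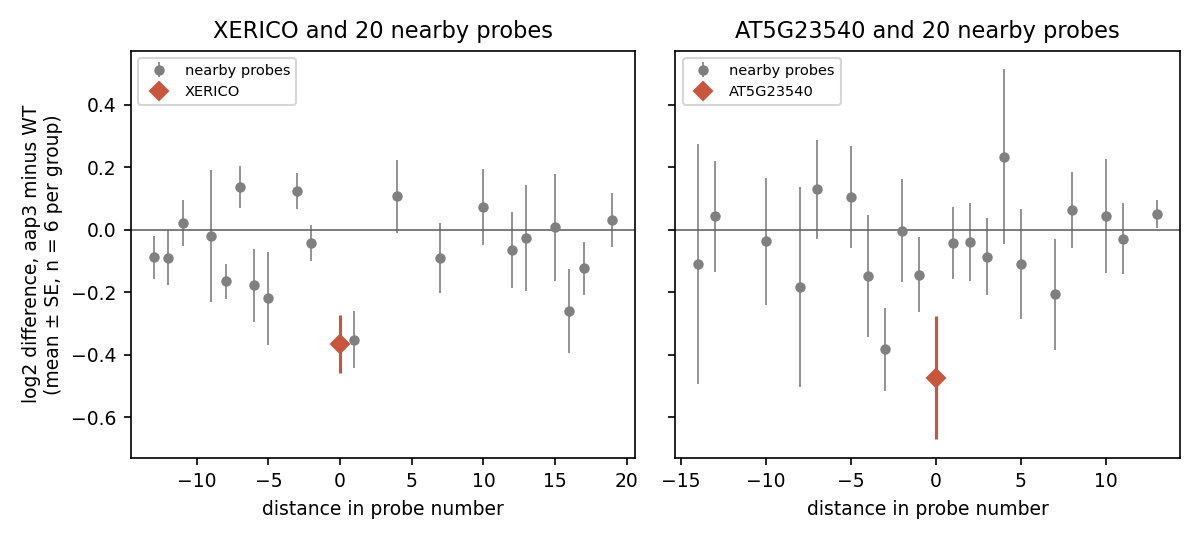
Log2 difference between aap3 and WT (mean ± SE, n = 6 per group) against distance in probe number, for XERICO and AT5G23540 (diamonds) and the 20 probes nearest to each (grey). The genes stand at -0.37 and -0.47, and the lowest nearby probes at -0.35 and -0.38.

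The 2 genes followed each other over the 12 samples. Pearson's r was 0.83 and Spearman's rho 0.82, and r was 0.73 with the mean of each group taken out. Among the other 617 single-gene probes above the floor in at least 6 samples, AT5G23540 was the second most like XERICO. The first was AT3G06870 (r = 0.84), followed after AT5G23540 by AT5G15280 (0.82), AT5G42070 (0.80) and AT3G19810 (0.80). The samples share replicate numbers and both genes were chosen on the same difference, so r is a description.

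The genes most like AT5G23540 were AT3G19810 (r = 0.95), OTP70 (0.93), named for organelle transcript processing, AT1G73740 (0.92), AT3G06870 (0.89) and AT5G17630 (0.87). AT3G19810 and AT3G06870 are thus among the 5 most like either gene. AT3G19810 had a mean intensity of 2.18 ± 0.36 in WT and 1.68 ± 0.15 in aap3 (SD, n = 6) and differed by -0.31 ± 0.11 on the log2 scale (SE, limma adjusted p = 0.168). Leaving aside the 2 genes described here, limma called none of the genes in these 2 lists, with adjusted p from 0.0686 to 0.428. Over all 3439 probes it called 5%. AT1G73740 lies 3 probe numbers before AT5G23540.

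With group means taken out, so that genotype has no part in the likeness, other genes came first. For XERICO these were AT1G50020 (r = 0.93), AT3G52960 (0.86), AT3G44810 (0.85), AT1G06730 (0.84) and AT4G18540 (0.82). Of these, AT1G50020 was dim, at 0.144 ± 0.111 in WT and 0.166 ± 0.094 in aap3 (SD, n = 6). AT4G18540 was dim too, at 0.124 ± 0.099 and 0.094 ± 0.081. Probes had to lie above the floor in only 6 of 12 samples, so values set to the floor may enter r for such genes. For AT5G23540 they were AT4G19160 (0.95), CHLM (0.94), a methyltransferase of chlorophyll synthesis, APTX (0.94), named as aprataxin-like, AT3G14890 (0.93) and AT5G65490 (0.93). AT5G65490 lies 2 probe numbers before AT5G23540. CHLM, at 0.676 ± 0.144 in WT and 0.660 ± 0.078 in aap3 (SD, n = 6), followed the replicates and differed by 0.07 ± 0.15 between genotypes on the log2 scale (SE, limma adjusted p = 0.932). None of the 10 genes was called in limma between aap3 and WT, against 5% of all 3439 probes, with adjusted p of 0.772 or more.

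The loci listed for the rest of the pathway were hardly covered by single-gene probes. That list holds no ligases. Ligases were sought only by a term search that found none for want of descriptions, so their coverage is not known. Of 76 loci of the proteasome core, the regulatory particle, ubiquitin and its activating and conjugating enzymes, AT5G23540 was the 1 measured. Of 36 loci of abscisic acid synthesis, breakdown and response, 0 were measured. Among gene names in the annotation, 3 others are of protein turnover, and limma called none of them. FBL17, an F-box protein, the part of a ubiquitin ligase that selects targets, had a log2 difference of 0.11 ± 0.09 (SE, adjusted p = 0.651), with a lower level in aap3 in 2 of 6 pairs. SAP, another F-box protein known from flower development, had one of -0.17 ± 0.22 (adjusted p = 0.826), with a lower level in 4 of 6 pairs. TPP2, a peptidase that cuts peptides the proteasome releases, had one of 0.56 ± 0.21 (adjusted p = 0.17), with a higher level in aap3 in 5 of 6 pairs and values above the floor in 10 of 12 samples.

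Another 3 names bear on dehydration or on the carotenoids from which abscisic acid is made, and limma called none of them. DI21, named as drought-induced, had a log2 difference of -0.06 ± 0.12 (SE, adjusted p = 0.912), with a lower level in 5 of 6 pairs. SIS, named as salt-induced, had one of -0.22 ± 0.12 (adjusted p = 0.392), with a lower level in 5 of 6 pairs. Z-ISO, an isomerase of carotenoid synthesis, had one of -0.11 ± 0.11 (adjusted p = 0.726), with a lower level in 4 of 6 pairs. With the replicate block limma called none of the 6 genes, with adjusted p from 0.13 to 0.745. Over all 3439 probes, limma called 17.1% with the block and 5% without it. For 6 genes a count of none is near both shares, so nothing is read from it. These 6 were picked from their names after the lists gave no measured gene but AT5G23540. A p that misses the threshold does not show that their levels were alike.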

How the data were processed

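The authors deposited a table of intensities, with 1 value per probe in each of 12 samples. Per the labels, RNA was total RNA; array type, number of colours, background correction, normalization and genome build are unstated in the sources at hand. Sample medians lay between 0.476 and 0.536. Precision is limited by the number of samples, and depth has no meaning for these intensities. Each sample was divided by its median, floored at the 5th percentile of positive values (0.20 sample medians; 9.95% of values at or below it), taken to log2 and quantile normalized. Groups were compared in limma 3.58.1 (R 4.3.3) over all 3439 probes, with Benjamini-Hochberg adjustment at 0.05, and the code was tested on simulated data. The 182 probes that never rose above the floor enter the shared variance. Genes were assigned from the platform annotation at GEO, with symbols updated through the TAIR10.1 gene table: 692 probes with 1 gene (690 matched to a locus), 870 with several, 1877 with none.

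Same-numbered samples deviated together from their group means (correlation 0.73 to 0.75 in 6 pairs), so the numbers were taken to pair them, from the data and not from the labels. The members and lists were chosen with earlier results of these data known. The named genes are both members, list members, and for each member the 5 single-gene probes with the highest r, with and without group means. The 6 genes picked by name were added after the data were seen. The term search for list members found none, as the gene table holds names and few descriptions. Alternatives are given at the end.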

Additional observations from a re-analysis of the deposited data

How the results depend on the processing

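Both genes stayed lower in aap3 under all 25 alternatives, with log2 differences of -0.42 to -0.31 for XERICO and -0.64 to -0.37 for AT5G23540. Some alternatives could not move the difference: the replicate block, averaging of neighbouring replicates and a changed variance estimate in limma keep it by construction. All differences moved by less than the SD of single values within groups, 0.17 for XERICO and 0.35 for AT5G23540. That limit is wide beside their standard errors, 0.09 and 0.20 with samples taken as independent. With an offset in place of the floor, the difference of AT5G23540 was -0.38, against -0.47 in the main values. That of XERICO was -0.36, against -0.37. Leaving out 1 sample gave -0.42 to -0.31 for XERICO, -0.57 to -0.37 for AT5G23540 and 128 to 189 called probes. The count of 172 became 281 (71 higher, 210 lower) with deposited values, whose median log2 difference over all probes was -0.05, 587 with the replicate block and 1 (373 at an unadjusted p under 0.05) with neighbouring replicates averaged and unpaired. Settings added after the data were seen gave 0 in limma (755 at an unadjusted p under 0.05) with these averages and the couple as a replicate block, 854 with nearby probes subtracted and the replicate block, 112 in replicates 1 to 4, and 0 in replicates 5 and 6 in limma (929 at an unadjusted p under 0.05), with few samples. Shares of spread moved by over 10 percentage points for XERICO with median scaling (44.0% genotype, 54.1% replicate number) and for AT5G23540 with deposited values (47.1% and 48.0%). Where fewer samples do not show it, the cause was not tested. By locus, the ubiquitin list held no measured gene but AT5G23540 and the abscisic acid list none, so they gave no count. The term search missed XERICO, FBL17 and SAP, which each have a single-gene probe, so the ubiquitin list is incomplete. Signal over background was not used here.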
